A study of Rattus norvegicus with 18 samples.

Results

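The tumour necrosis factor (TNF) ligand and receptor superfamilies were followed in cortical collecting ducts, the last tubule segment of the kidney cortex, where principal cells handle salt and water and intercalated cells handle acid. Members were the genes whose symbol in the deposited table begins with Tnfsf or Tnfrsf and a number, or is Tnf, Lta or Ltb, and 31 of the 32883 genes of the table met this rule, 14 ligands and 17 receptors. The ducts were dissected by hand from kidneys of male Sprague-Dawley rats 3 h after the animals had received, by the intraperitoneal route, either lipopolysaccharide (LPS, from the outer membrane of Gram-negative bacteria) or normal saline, called Vehicle; no genetic change is named for either group and no age is given. Each group held 3 numbered samples of 3 libraries each, 18 libraries in all, and the design text calls the samples paired without saying what a pair shared. Values are TPM, a transcript abundance set on 1 common total per library and divided by length, which can be compared between genes but keeps no read number, so the depth behind each value is unknown. A sample value is the mean of its 3 libraries, and a group value is the mean ± SD over 3 samples. Whether each sample is a different rat is not stated, so a p-value here reflects only how far these samples spread.

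TNF superfamily ligands are mostly made as membrane proteins that can be shed as trimers, and each binds 1 or more receptors on the same or a neighbouring cell. Receptors with a death domain, such as that for TNF, can form a complex activating the transcription factor NF-kappaB or one that starts cell death. Many of the other receptors recruit TRAF adaptors. LPS itself is sensed by Toll-like receptor 4, which also activates NF-kappaB and IRF factors and, through interferon, STAT factors. In the kidney the TNF receptors are best known from inflammatory injury of tubules and vessels.

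The 250 bases before the annotated start of the gene are shown for 4 members: the ligands Tnfsf10 and Ltb and the receptors Tnfrsf12a and Tnfrsf1b. They carry the results on the most strongly changed ligand, the most abundant receptor, and the promoters with a match among the members that were higher with LPS. Sequences are from RefSeq on GRCr8, a later build than that of the deposited values, and run 5′ to 3′ on the strand of the gene, at chr2:112136689-112136938 (plus strand) for Tnfsf10, chr20:3634055-3634304 (minus) for Ltb, chr10:13213649-13213898 (minus) for Tnfrsf12a and chr5:162387412-162387661 (minus) for Tnfrsf1b. Capitals mark matches on either strand to 1 of 3 motifs. These were the NF-kappaB consensus (GGGRNWYYCC), the core of the interferon-stimulated response element (ISRE, GAAANNGAAA) and the gamma-activated site bound by STAT factors (GAS, TTCNNNGAA). R is A or G, Y is C or T, W is A or T and N is any base.
Tnfsf10: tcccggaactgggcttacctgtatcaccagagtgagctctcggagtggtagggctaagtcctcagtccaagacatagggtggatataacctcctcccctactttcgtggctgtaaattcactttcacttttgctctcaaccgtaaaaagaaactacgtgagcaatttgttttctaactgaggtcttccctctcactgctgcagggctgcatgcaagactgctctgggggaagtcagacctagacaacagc
Ltb: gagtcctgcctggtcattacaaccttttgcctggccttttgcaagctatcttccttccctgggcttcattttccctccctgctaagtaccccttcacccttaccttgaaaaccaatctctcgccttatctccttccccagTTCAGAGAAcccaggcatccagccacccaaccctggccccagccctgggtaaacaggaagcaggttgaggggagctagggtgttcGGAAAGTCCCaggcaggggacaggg
Tnfrsf12a: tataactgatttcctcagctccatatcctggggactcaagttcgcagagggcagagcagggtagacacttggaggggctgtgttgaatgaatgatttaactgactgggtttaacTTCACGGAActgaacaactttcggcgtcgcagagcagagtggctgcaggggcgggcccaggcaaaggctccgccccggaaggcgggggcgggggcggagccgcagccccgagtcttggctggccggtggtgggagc
Tnfrsf1b: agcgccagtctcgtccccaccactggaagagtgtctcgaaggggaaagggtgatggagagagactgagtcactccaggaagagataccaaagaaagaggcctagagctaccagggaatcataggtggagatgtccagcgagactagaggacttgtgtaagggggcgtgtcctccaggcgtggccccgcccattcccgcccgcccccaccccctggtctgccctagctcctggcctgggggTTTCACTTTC

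In the Ltb promoter the NF-kappaB match, on the opposite strand, begins 25 bases before the start and the GAS match 110 bases before it. Tnfrsf12a held a GAS match at 136 bases, Tnfrsf1b held an ISRE match on the opposite strand at 10 bases, and the Tnfsf10 window held no match to the 3 motifs as spelled here. RefSeq's table gave a promoter for 24 of the 31 members. An NF-kappaB match stood in 4 of these 24 (16.7%) against 3.54% of all 33469 promoters, an ISRE match in 3 (12.5%) against 3.41%, and a GAS match in 3 (12.5%) against 7.67%. Among the 9 promoters of members called higher with LPS the counts were 1, 1 and 2. The remaining matches were in members with too little RNA to be tested, for example Lta with an NF-kappaB match at 93 bases and Tnfsf14 with 1 at 180 bases. A match describes the letters only.

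With LPS the ducts carried several times more superfamily RNA. Summed over the 31 members, TPM was 181, 168 and 177 in Vehicle samples 1, 2 and 3 and 637, 1328 and 1261 in LPS samples 1, 2 and 3. Every LPS sample was above every Vehicle sample, and LPS 1 was the lowest of the LPS samples. By group mean the 4 most abundant members of Vehicle were Tnfrsf12a, Tnfrsf21, Tnfsf13 and Tnfrsf1a, in that order, which made up 83.9% ± 1.06 (SD, n = 3) of the sum. For LPS they were Tnfrsf12a, Tnfsf10, Tnfrsf21 and Tnfrsf1a, with 86.5% ± 4.41 (SD, n = 3). The share of Tnfsf10 in the sum was 3.09% ± 0.559 in Vehicle and 24.4% ± 5.79 in LPS.

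A filter of at least 1 TPM on the mean over all libraries left 12 members to test, 5 ligands and 7 receptors, among 12393 genes. By limma, with Benjamini-Hochberg adjustment over all 12393 genes and the sample number as a block, 10 of the 12 were higher with LPS (4 ligands and 6 receptors) and 0 were lower at an adjusted p under 0.05 (0 also at an unadjusted p under 0.05, and 0 under each alternative run). Over all tested genes 7.17% were called higher and 22.2% lower. Of the 12 tested members 8 had at least 1 TPM in Vehicle, and 7 of those were called higher. The other 4, Tnfrsf1b, Tnfrsf9, Tnfrsf14 and Tnfrsf11a, passed the filter only through LPS, so their direction was set by the filter. The median log2 change, on the log2(TPM + 1) scale, was 1.94 for the 12 tested members and -0.38 for all tested genes. Over all 31 members, with no filter, the median was 0.19, beside -0.01 over all genes of the table. In all 12 tested members every LPS sample was above every Vehicle sample, which was so for 9.82% of all tested genes. In 9 of the 12 every LPS library was above every Vehicle library, beside 5.12% of all tested genes. The exceptions were Ltb, Tnfsf12 and Tnfrsf11a. The median of 1.94 and these counts include the 4 members whose direction the filter set. The 10 calls depend on how libraries were summarised and on sample 3: 0 members were called when the median of the 3 libraries replaced their mean or when no filter was applied (11 and 15 at an unadjusted p under 0.05), and 4 were called without sample number 3. In a bulk sample, fewer cells of a type and less RNA per cell cannot be told apart.

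**Figure D1:**
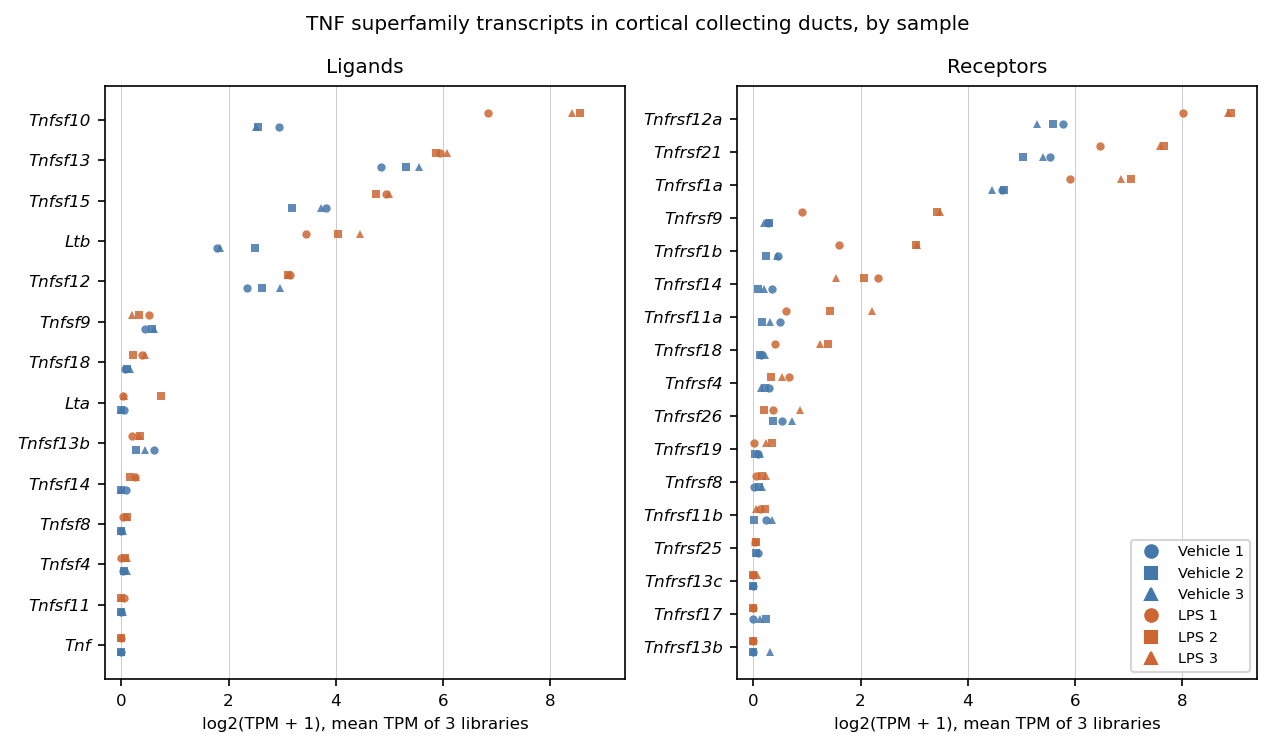
Level of each of the 31 members in each sample, as log2(TPM + 1) of the mean TPM of 3 libraries, ligands on the left and receptors on the right, Vehicle samples in blue and LPS samples in orange, with the sample number given by the shape. LPS samples lie to the right of the Vehicle samples for the 12 tested members, and most other members lie near 0 in both groups.

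Among the ligands, Tnfsf10 (ENSRNOG00000013269) changed most. It encodes TRAIL, a ligand that can trigger apoptosis through death receptors and a known interferon-stimulated gene. Its level was 6.72, 4.87 and 4.70 TPM in Vehicle samples 1, 2 and 3 and 113, 378 and 339 TPM in LPS samples 1, 2 and 3. The lowest LPS library, at 91.2 TPM, was above the highest Vehicle library, at 7.77 TPM. Group means were 5.43 ± 1.12 and 277 ± 143 TPM (SD, n = 3), a 51.0-fold ratio, and the log2 change was 5.28 (SE 0.41, limma adjusted p = 0.000691). Tnfsf10 went from 6th to 2nd place among the members by mean TPM. Its rat death receptor Tnfrsf10b, which has no row in the table, was not analysed here.

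Ltb (ENSRNOG00000000836) encodes lymphotoxin beta, the membrane-anchored subunit of the lymphotoxin heterotrimer. Vehicle samples 1, 2 and 3 read 2.45, 4.63 and 2.56 TPM, against 9.87, 15.4 and 20.9 TPM for the LPS samples. All LPS samples were higher, although the libraries overlapped, the highest Vehicle library reaching 6.58 TPM and the lowest LPS library 6.35 TPM. The means, 3.21 ± 1.23 and 15.4 ± 5.51 TPM (SD, n = 3), differed 4.79-fold, with a log2 change of 1.96 (SE 0.27, limma adjusted p = 0.00588). Lta and Tnf, its neighbours on chromosome 20 in GRCr8, gave little or no signal: Tnf is listed at 0 in all 18 libraries, as are 9167 genes of the table, and Lta was above 0 in 1 Vehicle and 3 LPS libraries, with a highest value of 1.99 TPM in LPS 2. A value listed at 0 in this table does not show that the RNA was absent.

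Tnfsf15 (ENSRNOG00000008930) encodes TL1A, a ligand known to costimulate T cells and to restrain endothelial growth. Vehicle samples held 13.2, 8.11 and 12.3 TPM and LPS samples 29.6, 25.9 and 30.8 TPM. The LPS samples lay close together and clear of Vehicle. The log2 change was 1.36 (SE 0.19, limma adjusted p = 0.00646), a 2.57-fold ratio of means. Without sample number 3 the call was lost (limma adjusted p = 0.0579).

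Tnfsf13 (ENSRNOG00000014171), which encodes APRIL, a survival factor for B cells and plasma cells, was the most abundant ligand in Vehicle. Per sample, Vehicle values were 27.9, 38.9 and 46.3 TPM and LPS values 60.4, 57.5 and 66.5 TPM. The increase was small, 1.63-fold, with means of 37.7 ± 9.25 and 61.5 ± 4.56 TPM (SD, n = 3) and a log2 change of 0.72 (SE 0.19, limma adjusted p = 0.0358). It was the least stable call among the ligands: it was lost without sample number 2 (0.0751) and without sample number 3 (0.166), with no variance trend (0.0511) and without the 1 library that stood apart (0.0545, all limma adjusted p).

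Tnfsf12 (ENSRNOG00000045670), the gene of TWEAK and the neighbour of Tnfsf13 in GRCr8, was not called. Its Vehicle samples read 4.11, 5.14 and 6.79 TPM and its LPS samples 7.84, 7.67 and 7.59 TPM, with a log2 difference of 0.48 (SE 0.23, limma adjusted p = 0.135). The groups did not overlap by sample, but the differences within pairs were 0.80, 0.49 and 0.15.

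Among the receptors, Tnfrsf12a (ENSRNOG00000003546) encodes Fn14, the receptor of TWEAK, known to be induced in injured tissue. It was the most abundant member in both groups, with Vehicle values of 53.6, 47.5 and 38.5 TPM and LPS values of 260, 483 and 461 TPM. Every LPS library, from 232 TPM upward, exceeded every Vehicle library, the highest at 59.5 TPM. The means of 46.5 ± 7.61 and 401 ± 123 TPM (SD, n = 3) gave an 8.63-fold ratio and a log2 change of 3.04 (SE 0.26, limma adjusted p = 0.00105).

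Tnfrsf1a (ENSRNOG00000031312), the gene of the widely expressed death-domain receptor of TNF, read 24.0, 24.5 and 21.0 TPM across the Vehicle samples and 59.0, 131 and 116 TPM across the LPS samples. Vehicle samples differed little, and LPS 1 lay between them and the other LPS samples. The ratio of means was 4.41 and the log2 change 2.02 (SE 0.26, limma adjusted p = 0.00479; 0.0511 without sample number 3). Tnfrsf1b (ENSRNOG00000016575), which encodes the second TNF receptor, a TRAF-binding receptor without a death domain, started far lower and passed the filter only through LPS. Its values were 0.370, 0.180 and 0.353 TPM in Vehicle and 2.01, 7.22 and 7.34 TPM in LPS, with a log2 change of 2.17 (SE 0.37, limma adjusted p = 0.0123; 0.0977 without sample number 3). In LPS, Tnfrsf1b thus stood at 5.52 ± 3.04 TPM beside 102 ± 38.1 TPM for Tnfrsf1a (SD, n = 3). The gene next to Tnfrsf1b in GRCr8, Tnfrsf8, the gene of the lymphocyte receptor CD30, stayed under 1 TPM in every library.

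Tnfrsf21 (ENSRNOG00000011517) encodes death receptor 6, a death-domain receptor best known from neurons and T cells. It was the second member in Vehicle, at 45.4, 31.7 and 41.6 TPM, and stood at 87.9, 203 and 192 TPM in LPS. The pair of LPS 1 and Vehicle 1 differed by 0.93 (log2), the pairs numbered 2 and 3 by 2.64 and 2.20. The log2 change was 1.92 (SE 0.31, limma adjusted p = 0.0103), a 4.06-fold ratio of means, and the call was lost without sample number 3 (0.0918).

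Tnfrsf9 (ENSRNOG00000036942), the gene of CD137, a costimulatory receptor of activated T cells that other cell types can also express, was near 0 in Vehicle at 0.210, 0.227 and 0.140 TPM. LPS samples held 0.873, 9.69 and 10.2 TPM, and only through them did the gene pass the filter. LPS 1 stayed under 1 TPM, closer to Vehicle than to the other LPS samples. The log2 change of 2.35 had the largest error among the tested members (SE 0.52, limma adjusted p = 0.0232). The call was lost under both other scalings (adjusted p = 0.0684 and 0.0629), without sample number 3 (0.16) and without the library that stood apart (0.0513).

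Tnfrsf14 (ENSRNOG00000013820) encodes HVEM, a receptor shared by LIGHT (Tnfsf14) and lymphotoxin. Vehicle samples held 0.267, 0.060 and 0.143 TPM, and LPS samples 4.01, 3.19 and 1.93 TPM. The gene passed the filter only through LPS. Unlike the other called receptors it was highest in LPS 1. The log2 change was 1.75 (SE 0.28, limma adjusted p = 0.00966). Tnfrsf11a (ENSRNOG00000015615), the gene of RANK, the receptor that drives osteoclast formation, also passed the filter only through LPS and was not called. Its values were 0.407, 0.117 and 0.233 TPM in Vehicle and 0.533, 1.70 and 3.67 TPM in LPS, with a log2 difference of 1.10 (SE 0.39, limma adjusted p = 0.0683); without sample number 1 it was called (limma adjusted p = 0.0201). The decoy receptor gene Tnfrsf11b, which encodes osteoprotegerin, averaged 0.153 TPM in Vehicle and 0.1 in LPS.

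**Figure D2:**
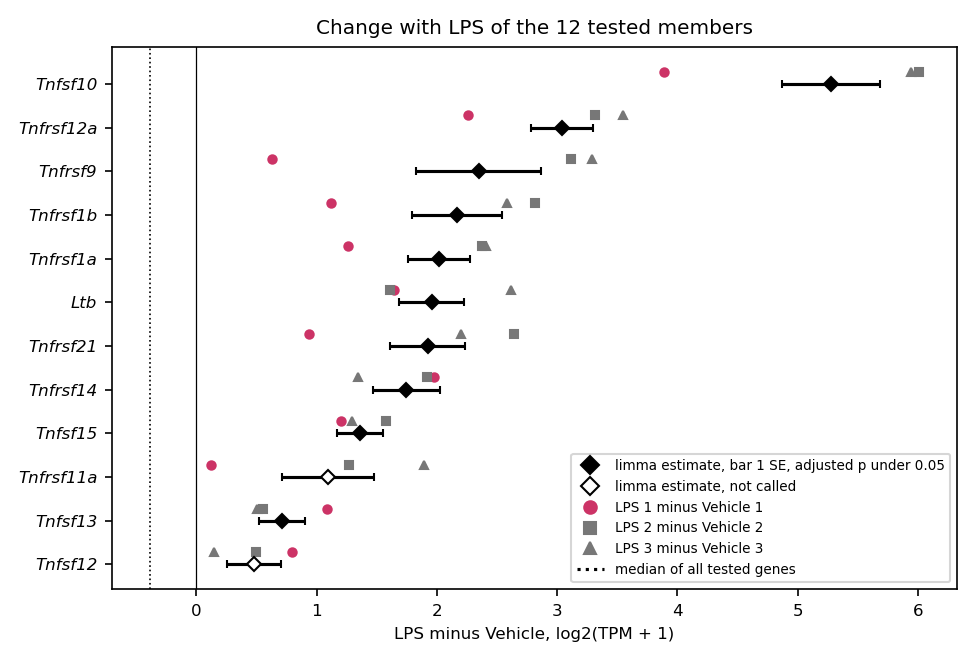
LPS minus Vehicle in log2(TPM + 1) for the 12 tested members: diamonds are limma estimates with bars of 1 SE (filled where the adjusted p is under 0.05), small symbols are the differences within the 3 same-numbered pairs, and the dotted line is the median of all tested genes. The difference of pair 1 is the smallest of the 3 in 8 of the 12 members.

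LPS 1 had less of most induced members than the other LPS samples. It was the lowest LPS sample in 7 of the 10 members called higher, and pair 1 had the smallest change in 7 of the 10. The same held across the table: LPS 1 was the lowest LPS sample for 81.2% (722) of the 889 genes called higher, and the change was smallest in pair 1 for 78.0% (693). On the first principal component, which held 75.2% of the variance, LPS 1 stood at 16.8, LPS 2 at 70.2 and LPS 3 at 68.4, and Vehicle samples between -56.6 and -47.9. Of the called members, Tnfsf13 and Tnfrsf14 had their smallest change in pair 3 and Ltb in pair 2.

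The 19 members not tested were 9 ligands and 10 receptors, and 15 of them stayed under 1 TPM in every library. The 4 that reached it were Lta, Tnfrsf18 (GITR, a receptor of regulatory T cells), Tnfrsf4 (OX40, a T cell costimulatory receptor) and Tnfrsf26. Tnfrsf18 read 0.107, 0.0867 and 0.167 TPM across Vehicle and 0.320, 1.63 and 1.38 TPM across LPS, so that every LPS sample was above every Vehicle sample. Tnfrsf4 averaged 0.161 TPM in Vehicle and 0.427 in LPS, also without overlap of samples, and Tnfrsf26 0.454 and 0.426 TPM, with overlap. The same separation by sample was seen for 3 ligands at very low levels, Tnfsf18 (0.0811 and 0.276 TPM), Tnfsf14 (0.0211 and 0.173 TPM) and Tnfsf8 (0.00556 and 0.0589 TPM). Such a separation was present in 5 of the 19 members under the filter, beside 1.54% of all 20490 genes under it and 2.78% of those above 0 in at least 1 library. The other 14 members overlapped.

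Several ligands of lymphocytes averaged under 1 TPM in both groups, unlike Tnfsf13 and Tnfsf15. Tnfsf13b, the gene of the B cell factor BAFF, averaged 0.366 TPM in Vehicle and 0.224 in LPS, and Tnfsf9, the ligand of CD137, 0.457 and 0.276 TPM. Tnfsf4, the OX40 ligand, averaged 0.0411 and 0.0422 TPM and Tnfsf11, the RANK ligand, 0.00667 and 0.0122 TPM. The B cell receptors were at or near 0: Tnfrsf13c was above 0 in 1 LPS library, and Tnfrsf13b and Tnfrsf17 were above 0 in 2 and 3 Vehicle libraries and in 0 LPS libraries. Tnfrsf25, the gene of the receptor of TL1A, averaged 0.0456 TPM in Vehicle and 0.0256 in LPS, and Tnfrsf19 0.06 and 0.154 TPM.

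Textbook ligand and receptor pairs were then set side by side within the ducts. The 13 pairs were a chosen set with both genes in the table, not all such pairs: Faslg with Fas and Cd40lg with Cd40, for example, were left out. Of the 13, 2 had both genes at a mean of at least 1 TPM, in Vehicle and in LPS alike. They were Ltb with Ltbr (the lymphotoxin beta receptor), and Tnfsf12 with Tnfrsf12a. Lymphotoxin was represented here by Ltb alone, and Lta averaged 0.0111 TPM in Vehicle and 0.242 in LPS. In LPS a further 6 pairs had the receptor alone at a mean of at least 1 TPM. Among them were Tnf with Tnfrsf1a and Tnfrsf1b, and Tnfsf9 with Tnfrsf9. The ligand alone was at that level in 2, Tnfsf15 with Tnfrsf25 and Tnfsf13 with Tnfrsf17, and 3 pairs had neither. Tnf is listed at 0 in all 18 libraries, which does not show that its RNA was absent. Ltbr itself did not pass the test, its Vehicle mean being 31.6 ± 0.222 TPM and its LPS mean 32.8 ± 2.05 TPM (SD, n = 3), with a log2 difference of 0.05 (SE 0.17, limma adjusted p = 0.831). RNA levels of a ligand and a receptor in the same sample do not show which cells carried them.

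**Figure D3:**
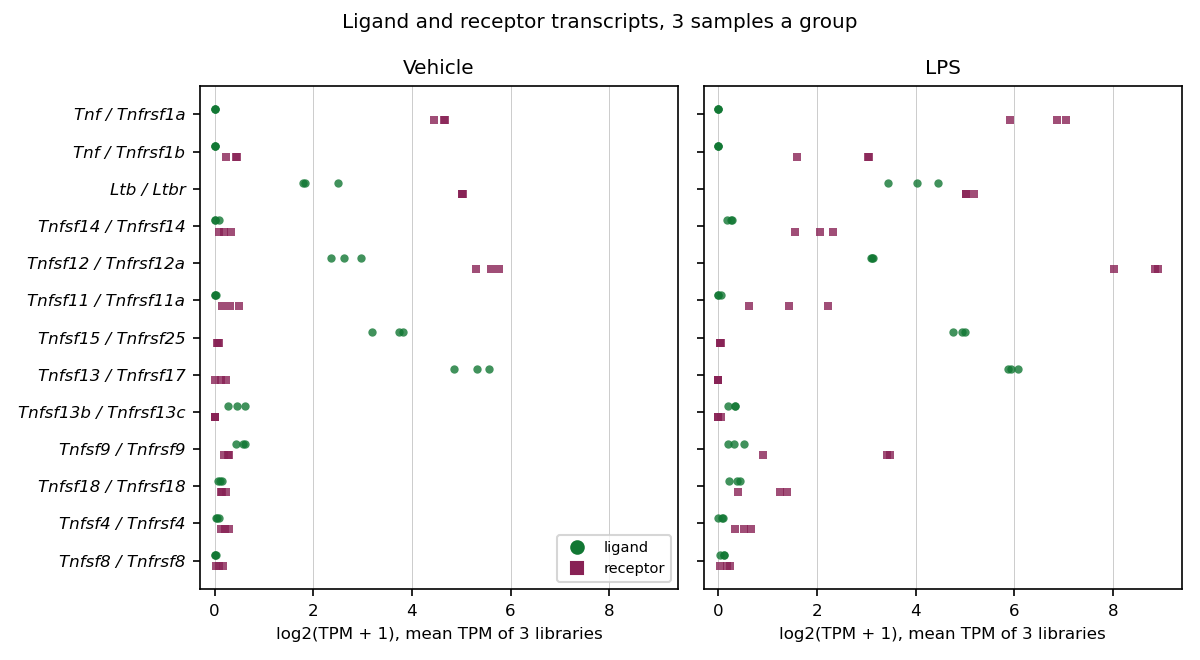
Ligand (green circles) and receptor (purple squares) levels for 13 chosen textbook pairs, log2(TPM + 1) of the mean TPM of 3 libraries, 1 point per sample, Vehicle on the left and LPS on the right. In LPS the receptors Tnfrsf1a, Tnfrsf1b and Tnfrsf9 lie to the right while the ligands Tnf and Tnfsf9 lie at or near 0.

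Superfamily genes that carry other symbols, 12 in number, were looked at beside the members. Of these 5 were tested, with 3 higher (60%, against 7.17% of all tested genes) and 1 lower (20%, against 22.2%). Cd40, Fas and Ngfr passed the filter only through LPS and Edar only through Vehicle, so the filter set the direction of all 4 calls. Cd40, which encodes the receptor through which T cells activate antigen-presenting cells, went from 0.709 ± 0.258 to 66.8 ± 42.0 TPM (SD, n = 3), a log2 change of 5.06 (SE 0.47, limma adjusted p = 0.00148). Fas, the gene of the death receptor CD95, was at 0.193 ± 0.0926 and 9.54 ± 5.97 TPM (log2 change 2.97, limma adjusted p = 0.00504), while Faslg, its ligand, averaged 0.104 and 0.221 TPM. Ngfr, the gene of the p75 neurotrophin receptor, was at 0.103 ± 0.0167 and 5.53 ± 4.73 TPM (2.15, limma adjusted p = 0.0276; 0.178 without sample number 3), and its call was lost under both other scalings. Edar, the gene of the ectodysplasin receptor, fell from 2.90 ± 1.50 to 0.292 ± 0.0135 TPM (-1.50, limma adjusted p = 0.0178; 0.136 without sample number 3). The other 7 genes were not tested.

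Downstream of the receptors, 52 of 54 listed signalling genes were tested, of which 23 were higher (44.2%, against 7.17% of all tested genes) and 5 lower (9.62%, against 22.2%), with a median log2 change of 0.59 beside -0.38 over all tested genes. Ripk3, Map3k14 and Rel, 3 of the 23, passed the filter only through LPS. Members and gene lists, these included, were chosen with earlier results of these data known. Their shares are therefore not those of an unselected set. Under median-ratio scaling the counts were 25 and 1, under quantile normalization 24 and 4, and without sample number 3 they were 10 and 1. In the complexes at the receptors 8 of 18 genes rose (44.4%, against 7.17% of all tested genes) and 2 fell (11.1%, against 22.2%). Birc3, which encodes the ubiquitin ligase cIAP2, went from 5.53 ± 0.187 to 435 ± 82.8 TPM (SD, n = 3), a log2 change of 6.04 (SE 0.18, limma adjusted p = 4.9e-05). Ripk3, the kinase of necroptosis, changed by 3.51 (limma adjusted p = 0.00443), Cflar, the inhibitor of caspase 8, by 1.85 (0.00475) and Birc2, the gene of cIAP1, by 1.32 (0.00809; 0.0826 without sample number 3). Tradd, the adaptor of Tnfrsf1a, fell from 45.5 ± 2.56 to 19.6 ± 8.05 TPM (-1.25, limma adjusted p = 0.017) and Sharpin, a subunit of the linear ubiquitin ligase, from 70.2 ± 3.64 to 40.2 ± 13.1 TPM (-0.84, 0.0358). Neither fall was called with median-ratio scaling (0.0554 and 0.159) or without sample number 3 (0.138 and 0.224), and that of Sharpin was not called without sample number 2 (0.155), with quantile normalization (0.0927) or without the library that stood apart (0.0571). Rbck1, another subunit of that ligase and the most abundant gene of this list in Vehicle, was at 78.1 ± 7.25 and 71.0 ± 5.28 TPM and was not called (limma adjusted p = 0.545).

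All 5 NF-kappaB subunit genes were called higher, beside 7.17% of all tested genes, with a median log2 change of 2.55. Rel, at 0.534 TPM in Vehicle and 2.07 in LPS, passed the filter only through LPS. Relb rose from 8.17 ± 1.55 to 187 ± 8.65 TPM (4.38, limma adjusted p = 0.000122) and Nfkb2, its partner of the noncanonical pathway, from 10.2 ± 1.36 to 145 ± 14.6 TPM (3.70, 0.000232). Nfkb1 changed by 2.55 (0.0033) and Rela by 0.99 (0.00856; 0.0877 without sample number 3). In these genes LPS 1 did not always stand low: Relb was at 195, 188 and 178 TPM in LPS samples 1, 2 and 3. Of 10 tested inhibitors 6 were higher (60%, against 7.17% of all tested genes) and 0 lower (against 22.2%). The higher ones were led by Nfkbie, an inhibitor of NF-kappaB, with a log2 change of 3.25 (limma adjusted p = 0.000209), and Tnfaip3, the ubiquitin-editing enzyme A20, with 3.60 (0.00342). Nfkbia, the gene of the inhibitor IkappaB alpha, changed by 2.33 (0.0119) and Tnip2, a partner of A20, by 1.50 (0.013); without sample number 3 neither was called (0.0992 and 0.0947).

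Kinases between the receptors and NF-kappaB or MAP kinases had 2 of 15 genes higher (13.3%, against 7.17% of all tested genes) and 2 lower (13.3%, against 22.2%), with a median log2 change of -0.26. Map3k8 (1.98, limma adjusted p = 0.0164) and Map3k14, the kinase NIK of the noncanonical pathway (1.01, 0.0324), rose, Map3k14 having passed the filter only through LPS. Without sample number 3 neither was called (0.119 and 0.143), nor was Map3k14 without sample number 2 (0.182). Map2k3, which activates p38, was called lower from the sample means (-1.77, 0.0033), but its libraries ran from 0.01 to 36.5 TPM in Vehicle and from 0 to 33.7 TPM in LPS, with 3 LPS libraries at 0, and the call was lost with all 18 libraries in the fit (0.43). Tab1 fell from 25.4 ± 3.79 to 11.5 ± 2.33 TPM (-1.08, 0.0188; 0.053 with median-ratio scaling and 0.15 without sample number 3). Mapk14, the p38 gene itself, was at 70.3 ± 3.89 and 60.3 ± 12.1 TPM (SD, n = 3) and was not called, nor was Map2k4, a kinase of the JNK pathway, at 49.1 ± 5.78 and 51.9 ± 6.70 TPM. For ligand shedding, Rhbdf2 and Rhbdf1, the iRhom partners of the sheddase ADAM17, rose by 2.58 (0.000552) and 1.60 (0.00389). Adam17 was not called (0.57, 0.166), and Adam10, a related sheddase, fell from 30.7 ± 6.40 to 14.3 ± 1.15 TPM (-1.03, 0.0166; 0.0607 with median-ratio scaling and 0.141 without sample number 3).

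**Figure D4:**
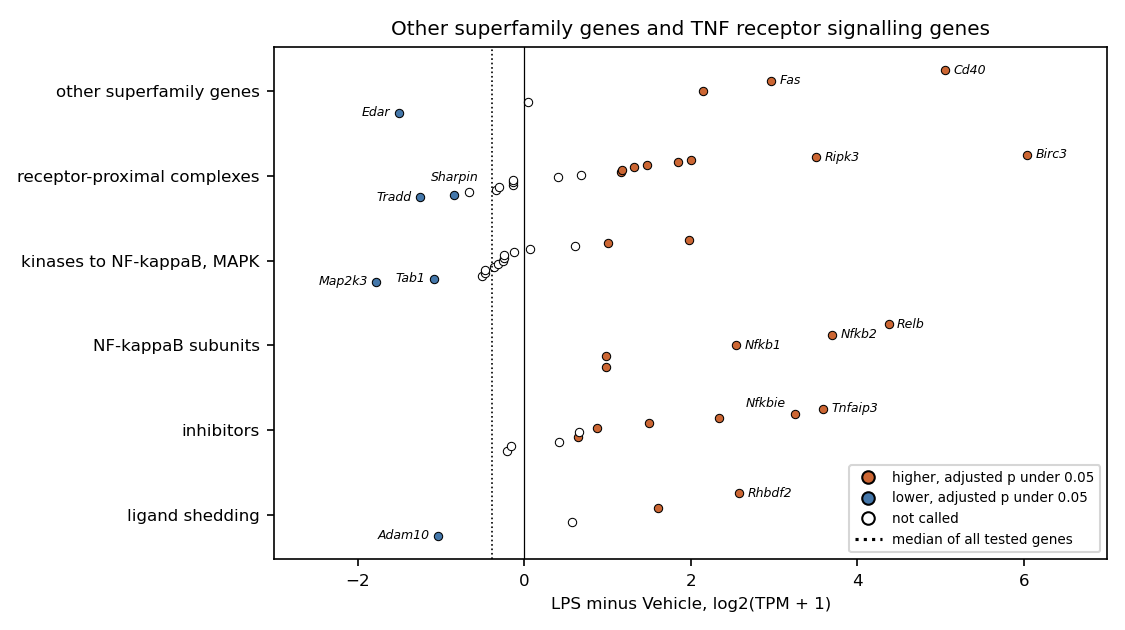
LPS minus Vehicle in log2(TPM + 1) for the tested genes of the other superfamily symbols and of 5 lists of TNF receptor signalling genes, 1 point per gene, orange for higher, blue for lower and white for not called, with the median of all tested genes as a dotted line. The 5 NF-kappaB subunit genes lie at 0.98 or above, and Birc3 lies at 6.04.

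The scaling of the libraries matters for the smaller changes. TPM fixes each library's total, and with LPS the median tested gene stood 0.38 (log2) below Vehicle. Scaling by the median ratio brought that median to -0.01 and quantile normalization to -0.13. Over all tested genes 6.87% were then called higher and 3.7% lower with the median ratio, and 6.43% and 4.5% with quantile normalization, that is 851 and 458, and 797 and 558 genes, in place of 889 and 2757. Members called higher numbered 10 under each, 9 of the same 10 genes plus Tnfsf12 (0.84, adjusted p = 0.0398, and 0.87, 0.0356) and without Tnfrsf9. Each of the 12 tested members was higher with LPS under all 3 scalings. For 4 of them the filter, applied before the scaling, had already set the direction.

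**Figure D5:**
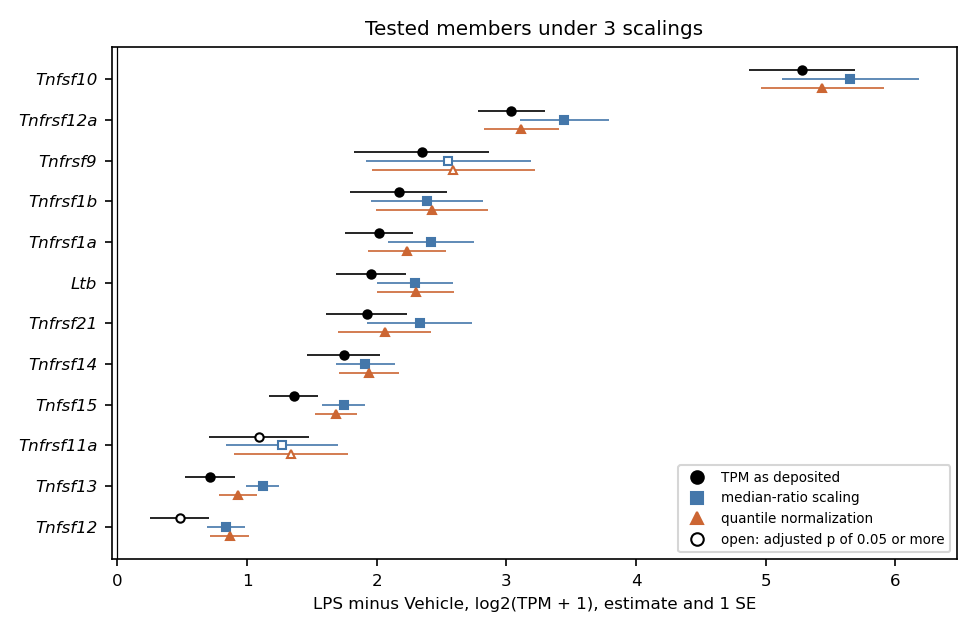
LPS minus Vehicle in log2(TPM + 1), limma estimate with 1 SE, for the 12 tested members with TPM as deposited (black circles), median-ratio scaling (blue squares) and quantile normalization (orange triangles), open where the adjusted p is 0.05 or more. The 2 other scalings lie at higher values than TPM as deposited for each member.

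The ducts were checked against markers of their own and of other cells. The 12 principal cell markers summed to 16900 to 18300 TPM in Vehicle and 9550 to 13200 in LPS. With TPM as deposited, 9 of them were called lower (75%, against 22.2% of all tested genes). Elf5 (2.92 and 0.570 TPM), 1 of the 9, had passed the filter only through Vehicle, so the filter set its direction. Scnn1b, Scnn1g and Fxyd4 were not called. The 12 intercalated cell markers summed to 13100 to 13400 TPM in Vehicle and 9610 to 12300 in LPS. Of these, 2 were called lower (16.7%, near the 22.2% of all tested genes). Macrophage and dendritic cell markers summed to 131 to 271 TPM in Vehicle and to 472, 288 and 225 TPM in LPS samples 1, 2 and 3. Of 11 tested, 5 were higher (45.5%, against 7.17% of all tested genes) and 1 lower (9.09%, against 22.2%). Lyz2, at 254, 112 and 91.8 TPM in LPS samples 1, 2 and 3, was the most abundant and had this order. Fcer1g (67.1, 44.5 and 36.7 TPM), C1qa, C1qb, C1qc, Aif1, Csf1r and Mrc1 had it too, and Tyrobp was also highest in LPS 1. Cd68 (4.66, 6.12 and 7.49 TPM), Cd14 (21.0, 43.3 and 28.3 TPM) and Adgre1 (4.91, 6.08 and 3.61 TPM) did not follow it, nor did Ms4a7, Ptprc, Itgam and Cd163. The markers called higher were Adgre1 (means of 1.09 and 4.87 TPM), Fcer1g (17.3 and 49.5), Cd14 (14.0 and 30.9), Tyrobp (9.02 and 16.7) and C1qa (5.16 and 13.2), and Csf1r was called lower. Cd163, Mrc1 and Itgam averaged 0.206 TPM or less in both groups, and Ptprc, the gene of the pan-leukocyte antigen CD45, averaged 0.831 ± 0.421 TPM for Vehicle and 1.14 ± 0.319 TPM for LPS (SD, n = 3). Neutrophil markers, 10 in number, summed to 0.45 to 0.85 TPM in Vehicle and 7.57, 2.29 and 83.0 TPM in LPS, most of it S100a8 and S100a9 in LPS 3, with Mpo and Elane at or near 0; both genes were called higher but had passed the filter only through LPS. T and NK cell markers summed to 3.33 to 7.77 TPM and 6.07 to 10.2 TPM, with 1 of 2 tested higher, Gzmb (0.0489 and 2.16 TPM), which had passed the filter only through LPS. Prf1 averaged 0.344 and 1.20 TPM without overlap of samples and Cd3e 0.244 and 0.451 TPM, Cd5 was at 0 in LPS and Klrb1 at 0 in Vehicle. B cell markers summed to 4.80 to 6.86 and 3.07 to 5.41 TPM, with Pax5 at 0 in LPS, and endothelial markers to 24.0 to 111 and 42.6 to 99.7 TPM. Of 9 tested endothelial markers 2 were called higher (22.2%, against 7.17% of all tested genes) and 1 lower (11.1%, against 22.2%). Those higher were Esam (4.65 and 20.9 TPM) and Flt1 (0.543 and 2.62 TPM, passing the filter only through LPS). Egfl7 (6.45 and 2.50 TPM) was lower, and Cldn5 was at 0 in every library. Fibroblast and mural markers summed to 5.43 to 11.3 and 2.03 to 7.74 TPM, proximal tubule markers to 1.66 to 34.3 and 1.62 to 22.6 TPM. Thick limb and distal tubule markers summed to 5010, 103 and 178 TPM in Vehicle samples 1, 2 and 3, and to 119 to 250 TPM in LPS. Calb1 made up nearly all of the first value, at 4943, 64.8 and 129 TPM in Vehicle samples 1, 2 and 3. In LPS samples 1, 2 and 3 Calb1 was at 210.5, 25.6 and 56.7 TPM, so the groups overlapped, LPS 1 lying above Vehicle 2 and 3. Its log2 differences within pairs 1, 2 and 3 were -4.75, -1.20 and -1.31. Of 6 tested, Calb1, Trpm6 and Wnk1 were called lower (50%, against 22.2% of all tested genes), and Pvalb was at 0 in every library. Trpm6 (2.73 and 0.963 TPM) had passed the filter only through Vehicle, so the filter set its direction. The part of these other cells in the levels of the members was not tested.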

How the data were processed

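The authors deposited 1 table of TPM per gene and library. Per the submitters' processing notes, reads were processed with STAR 2.7.9a and RSEM 1.3.3 on Rnor_6.0; the annotation is not given in the sources used here. RSEM shares reads between similar transcripts by estimate. Per the labels' protocols, polyA RNA was copied to cDNA with a kit for very small inputs, then PCR-amplified and tagmented. Column names beginning with N were read as Vehicle (normal saline) and L as LPS, and 0 columns of other samples were present. TPM keeps no depth; libraries listed 11399 to 12704 genes at 1 TPM or more.

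From these values, log2(TPM + 1) was averaged over the 3 libraries of each sample, and 12393 genes whose mean over the 18 libraries reached 1 TPM entered the test, a two-sided moderated test in limma 3.58.1 (R 4.3.3) with eBayes, a trend of variance on level, and Benjamini-Hochberg adjustment (2 residual and 4.97 prior degrees of freedom). The fit was tested on simulated data. The block on sample number rests on the design text, which calls the samples paired; same-numbered samples correlated across genes at r = 0.0622, -0.0175 and 0.0686 in their deviations from the group means. Fold changes on this scale understate the change of low genes; fold ratios are of mean TPM. Members and gene lists were chosen with earlier results of these data known. Every tested member was named with its samples; of other lists, up to 4 called genes were named in order of p, together with any uncalled gene among the 2 most abundant. Sharpin, Tradd, single markers, Faslg, Adam17 and untested members under 1 TPM were named after their values were seen. Promoters came from RefSeq's table on GRCr8, matched by symbol, and motifs were searched on both strands. Of the genes listed, 5 were not analysed here because no row carried their symbol. Alternatives changed the block, the unit of replication, the summary over libraries, the pseudocount (0.1 and 5), the filter (none and 5 TPM), the scaling, the variance trend and the samples included; leaving out the library that stood apart, and refiltering without a sample, were chosen after seeing the data.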

Additional observations from a re-analysis of the deposited data

How the results depend on the processing

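The count of members called higher was 10, and 0 were lower in each setting tried. It was 10 with no replicate block, with pseudocounts of 0.1 and 5, and with both other scalings; 12 with all 18 libraries and the replicate block on the paired samples; 9 with no variance trend; and 8 without the library that stood apart (Vehicle 3, library 1). With a filter of 5 TPM it was 7 of 8 tested. Tnfsf10 and Tnfrsf12a were called in 15 of 17 alternatives, with log2 changes between 4.59 and 5.97 and between 2.79 and 3.45. The median over libraries gave 0 higher and 0 lower among all genes, 0 members and 0 and 0 signalling genes; no filter gave 18 and 2 among all genes, 0 members, and 5 and 0 signalling genes. The cause of these losses was not tested. All genes called lower, 2757 in the reported fit, were 5295 with all 18 libraries and the replicate block, 458 with median-ratio scaling, 558 with quantile normalization and 1699 without the library that stood apart; signalling genes called lower were 1 in place of 5 with median-ratio scaling, and 4 under quantile normalization. No replicate block gave 912 higher and 3624 lower among all genes.

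Without 1 sample number the fit has 1 residual degree of freedom. The counts were then 279 to 1134 for all genes higher, 85 to 4303 for all genes lower, 4 to 11 for members higher, 10 to 26 for signalling genes higher and 1 to 7 for signalling genes lower; the lowest of each came without sample number 3. With the filter recomputed on the remaining libraries they were 280 to 1130, 84 to 4231 (1256 without sample number 2), 4 to 11, 10 to 26 and 1 to 7. No tested member reversed, though for the 4 that passed the filter only through LPS the filter had set the direction. Among genes not called, Rbck1 went from -0.13 to 0.27 with median-ratio scaling and to 0.016 with quantile normalization, Mapk14 from -0.24 to 0.17 with median-ratio scaling, Ltbr from 0.05 to between -0.000295 and 0.0801 when 1 sample number was left out, and Map2k4 from 0.076 to between -0.062 and 0.21; refiltering gave the same lowest values. Depth is unknown, so the precision of members under 1 TPM cannot be given.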
